A study of Mus musculus with 9 samples.

Results

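The genes described here encode the proteins of the mitochondrial ribosome. They were taken as every gene in the deposited count files whose symbol is Mrpl or Mrps followed by a digit, which gave 77 of 24054 genes. Of these, 48 are Mrpl genes, named for the large subunit, and 29 are Mrps genes, named for the small subunit. All 77 are annotated as protein-coding, all 77 passed the filter on low counts, and they lie on 17 chromosomes.

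The samples were type 2 dendritic cells, antigen-presenting cells of the spleen, from C57BL/6 mice with the genotype Clec9a-Cre/Cre Rosa-tdTomato/tdTomato. In these mice Cre recombinase is driven by the Clec9a locus, which is active in dendritic cell progenitors, so that red TOMATO fluorescence (TOM+) marks cells with a history of Clec9a expression. All cells were sorted as live, single and negative for autofluorescence, with MHCII, CD11c and CD11b on the surface, and were then divided by TOMATO. There were 3 libraries of TOM+ cDC2 from mice at postnatal day 8, 3 libraries of TOM- DC2 from mice of the same age, and 3 libraries of TOM+ cDC2 from adult mice, 1 at 9 weeks and 2 at 8 weeks of age. Cells of young mice came from pooled spleens, and both alleles are shared by all 3 groups, so there was no group without Cre or without the reporter. Labels numbered no replicates, so that replicate numbers below only name the libraries of a group, and p-values measure the spread between these libraries.

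Mitochondria keep a small genome that encodes core subunits of the respiratory chain and of ATP synthase, together with the ribosomal and transfer RNAs needed to translate them. The mitochondrial ribosome that makes these subunits has a small subunit, which holds the mRNA and decodes it, and a large subunit, which joins amino acids and passes the new chain towards the inner membrane. All of its proteins are encoded in the nucleus, translated in the cytosol and imported. Some have counterparts in bacterial ribosomes, while others were added during the evolution of mitochondria and are peculiar to this ribosome.

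Promoter sequences of the members, which are scattered over the genome, are shown first. Any relation between promoter motifs and the differences with age described below was not tested. RefSeq promoters (250 bases before to 50 bases after the annotated start, build GRCm38.p6, the first entry listed for each gene) were found for 68 of the 77 members, 42 of the large and 26 of the small subunit. They were searched on both strands for the ETS-type letters CCGGAAG, which match sites of GABP, for the core GCGCATG of NRF1 sites, for AAGATGGC of YY1 sites and for the E-box CACGTG of MYC-type factors. ETS letters were present in 35.3% of the members' promoters (24 of 68), against 17.1% of the promoters of tested genes and 9.12% of all 27025 promoters. YY1 letters were present in 17.6% of the members' promoters, against 4.48% of tested and 2.88% of all promoters. NRF1 letters were found in 11.8%, against 6.85% and 4.04%, and the E-box in 7.35%, against 9.89% and 7.24%. The SBS motif, a longer element bound by ZNF143 and THAP11, was added to the search after the printed sequences had been seen, and matched 7.35% of the members' promoters (Mrpl24, Mrpl34, Mrpl42, Mrpl50 and Mrps22), against 3.40% of tested and 1.62% of all promoters. Such a match describes letters in a window and is not a measured binding site.

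The sequences below are the 100 bases before the start of those members whose window held at least 1 of these motifs and no annotated exon, with Mrps12 added because its start lies 172 bases from that of Sars2, the mitochondrial seryl-tRNA synthetase gene, on the other strand. They are written 5′ to 3′ on the strand of the gene, and capitals mark a motif.
Mrps22 (chr9:98601680-98601779, minus strand): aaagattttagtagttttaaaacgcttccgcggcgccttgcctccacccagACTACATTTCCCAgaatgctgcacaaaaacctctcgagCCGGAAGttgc
Mrpl20 (chr4:155802778-155802877, plus strand): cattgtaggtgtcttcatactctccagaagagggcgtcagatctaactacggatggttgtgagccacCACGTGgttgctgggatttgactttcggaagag
Mrpl42 (chr10:95501950-95502049, minus strand): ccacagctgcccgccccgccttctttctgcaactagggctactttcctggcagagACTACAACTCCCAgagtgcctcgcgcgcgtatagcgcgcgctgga
Mrpl34 (chr8:71464826-71464925, plus strand): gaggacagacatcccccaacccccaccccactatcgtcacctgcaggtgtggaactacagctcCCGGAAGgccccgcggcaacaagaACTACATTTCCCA
Mrpl52 (chr14:54426809-54426908, plus strand): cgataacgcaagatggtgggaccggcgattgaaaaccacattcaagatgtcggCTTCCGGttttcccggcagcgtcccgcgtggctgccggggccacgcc
Mrpl43 (chr19:45006443-45006542, minus strand): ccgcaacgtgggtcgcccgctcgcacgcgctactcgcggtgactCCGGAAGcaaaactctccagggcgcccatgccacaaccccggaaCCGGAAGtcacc
Mrps12 (chr7:28741822-28741921, minus strand): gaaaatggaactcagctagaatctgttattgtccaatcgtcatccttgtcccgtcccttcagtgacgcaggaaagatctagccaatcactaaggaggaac
The ETS letters began 11 bases before the start in Mrps22, 37 in Mrpl34, 47 in Mrpl52 (on the other strand), and 56 and 12 in Mrpl43. The SBS letters began 49 bases before the start in Mrps22, 45 in Mrpl42 and 13 in Mrpl34, and the E-box of Mrpl20 began at 33. The printed window of Mrps12 held none of the motifs, while its full promoter of 250 bases before to 50 bases after the start held ETS and YY1 letters.

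Between 12783252 and 22809401 reads per library were counted on genes, and between 26956 and 66447 of these fell on the 77 members. The 11 cDC2 markers summed to 70106 to 78520 TPM in young and 111630 to 114990 TPM in adult libraries. Most of this came from Cd74, H2-Ab1 and H2-Aa (means of 44852, 16830 and 12281 TPM in young TOM+ cDC2), genes of MHC class II, which was part of the sort. Of the 11, 2 were higher in young TOM+ cDC2 and 8 in adults at an adjusted p under 0.05 in edgeR (21.0% and 19.5% of all genes). Sirpa and Itgam had means of 753 and 147 TPM in young TOM+ cDC2 and 470 and 77.9 TPM in adults. The defining genes of other cells were low for Xcr1 of cDC1 (2.43 to 3.79 TPM), Pax5 (at most 0.12 TPM) and Siglech (at most 1.32 TPM). Clec9a was at most 0.34 TPM, but Cre is inserted in both of its alleles in these mice. According to the paper such mice lack its functional protein, so the Clec9a level cannot show whether cDC1 were present. Other genes of the same lists were present, such as Batf3 (152 to 194 TPM) and Irf8 (20.3 to 49.2 TPM) of the cDC1 list, Bst2 (76.7 to 140 TPM) of the pDC list and Cd79b (25.3 to 68.2 TPM) of the B cell list. Summed over each list, macrophage or monocyte markers stood at 463 to 565 TPM in young and 390 to 419 TPM in adult libraries, B cell markers at 60.9 to 80.7 and 41.1 to 53.8 TPM, pDC markers at 104 to 116 and 122 to 164 TPM and cDC1 markers at 201 to 233 and 240 to 253 TPM. T cell markers were at most 6.32 TPM, and neutrophil markers were at 29.5 TPM in replicate 1 of young TOM- DC2 and at most 1.01 TPM elsewhere. The 8 erythroid markers summed to 1490.5 TPM in replicate 1 of young TOM- DC2, to 64.2 to 178 TPM in the other young libraries and to 1.39 to 23.4 TPM in adults. Reads outside annotated genes made up 15.2% to 17.1% of adult and 8.84% to 12.8% of young libraries. The part of these differences in the results below was not tested.

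**Figure D1:**
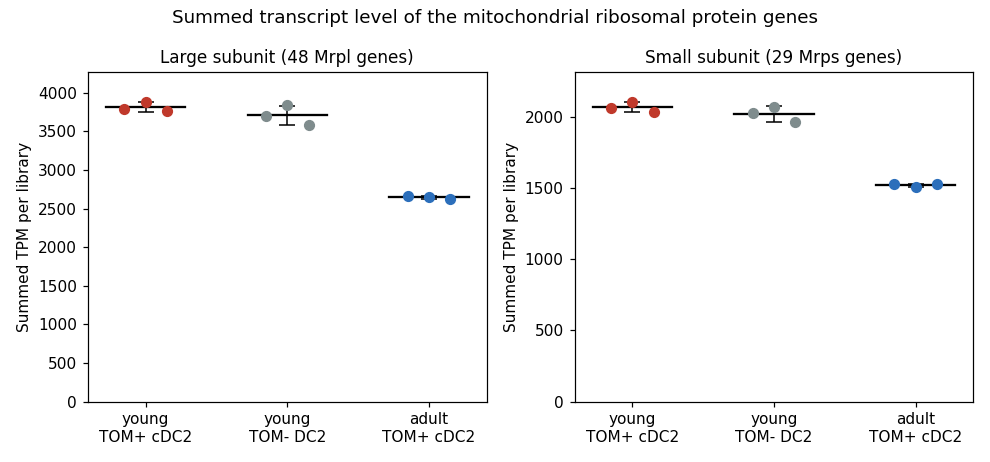
Summed TPM of the 48 large-subunit genes (left) and the 29 small-subunit genes (right) in each library, with the mean (line) and SD (bar) of 3 libraries per group. All young libraries lie above all adult libraries in both panels, with large-subunit sums of 3584 to 3881 against 2619 to 2657 TPM.

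Transcripts of the mitochondrial ribosomal proteins took up more of the mRNA of young than of adult cells. Together the 77 genes made up 0.588% ± 0.0095 of all TPM (a level corrected for transcript length, as a share of the library) in young TOM+ cDC2, 0.572% ± 0.018 in young TOM- DC2 and 0.416% ± 0.0020 in adult TOM+ cDC2 (SD, n = 3). For the large subunit the sum was 3789, 3881 and 3766 TPM in young TOM+ cDC2, 3696, 3834 and 3584 TPM in young TOM- DC2, and 2657, 2654 and 2619 TPM in adults. The small subunit summed to 2063, 2105 and 2038 TPM, to 2027, 2071 and 1960 TPM and to 1528, 1508 and 1526 TPM in the same order. In both subunits the young groups overlapped each other and neither overlapped the adults, as the plot of summed levels shows. The ratio of young TOM+ to adult means was 1.44 for the large and 1.36 for the small subunit. The ratio of large-subunit to small-subunit sums was 1.84 ± 0.0061 in young TOM+ cDC2, 1.83 ± 0.015 in young TOM- DC2 and 1.74 ± 0.022 in adults (SD, n = 3), and no young library overlapped an adult one. Over all genes tested the median difference between young TOM+ and adult cells was 0.17 on the log2(TPM + 0.1) scale. In bulk samples, fewer cells with these transcripts and less of them per cell cannot be told apart.

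Levels of single members spanned more than an order of magnitude in every group. Mrpl33, the counterpart of a small bacterial large-subunit protein, was the most abundant at 379 ± 36 TPM in young TOM+ cDC2, 372 ± 56 TPM in young TOM- DC2 and 228 ± 19 TPM in adults (SD, n = 3), followed in its subunit by Mrpl42, Mrpl52 and Mrpl54 with means over all libraries of 164.5, 149 and 142 TPM. The lowest of the large subunit were Mrpl19 (12.4 TPM), Mrpl1 (13.5 TPM), Mrpl35 (14.0 TPM) and Mrpl44 (14.6 TPM). In the small subunit Mrps21 (189 TPM), Mrps18c (123 TPM), Mrps15 (118 TPM) and Mrps16 (107 TPM) were highest, and Mrps25 (10.02 TPM), Mrps31 (15.7 TPM), Mrps22 (20.1 TPM) and Mrps2 (21.8 TPM) lowest. Median levels of the subunits were close, at 58.3 TPM for the large and 55.8 TPM for the small one. Shorter transcripts had higher levels (Spearman's rho −0.74 across the 77 genes), a relation across genes that share libraries and whose TPM are divided by that same length. For the log2 fold change of young over adult TOM+ cDC2 described next, rho across the same genes was −0.045 with level and −0.024 with length.

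Comparing young with adult TOM+ cDC2 asks how cells sorted by the same markers differ by age. Their make-up was not fully the same. The paper reports that the ratio of ESAM-high to ESAM-low cells, subsets of cDC2 named for a surface protein, was slightly lower at this young age than in adults. The part of subset make-up in the differences below was not tested. Of the 48 large-subunit genes, 37 were higher in young cells and 0 were lower at an adjusted p under 0.05 in edgeR's quasi-likelihood test, against 21.0% of all 14452 genes tested that were higher and 19.5% that were lower. Of the 29 small-subunit genes, 15 were higher and 0 lower. The median log2 fold change was 0.41 in the large subunit and 0.29 in the small subunit, against 0.05 over all genes tested, which means that most members differed by less than a doubling. No member passed both the test and a log2 fold change beyond 1, which 12.8% of all genes did, and Mrpl23 alone lay beyond 1, on almost no counts. Under some alternatives 1 to 3 members passed both. These were 2 small-subunit genes with the replicate block, 1 large-subunit and 1 small-subunit gene with limma on log2(TPM + 0.1), and 1 and 2 with total counts. Leaving out replicate 1 of young TOM+ cDC2 gave 1 small-subunit gene, and so did leaving out replicate 1 of both young groups. All members but Mrpl14 and Mrps7 had a positive fold change. Without replicate 3 of young TOM+ cDC2, 23 large-subunit and 12 small-subunit genes were higher, when the share over all genes was 16.8%. At an unadjusted p under 0.05, 39 and 17 were higher in the large and small subunit, and 0 and 1 were lower. At that threshold 3682 of all 14452 genes were higher and 3343 lower. DESeq2 gave 31 and 15 higher and 0 and 1 lower, when 20.1% of all genes were higher. RLE factors gave 31 and 15 higher, and the fits without a filter or with only the 2 groups compared each gave 33 and 15. In the same order, 19.7%, 17.6% and 20.0% of all genes were higher in these fits. With limma on log2(TPM + 1), 42 and 22 were higher and 0 and 0 lower, when 28.2% of all genes were higher. Scaling by total counts in place of TMM, which moved the split over all genes to 33.1% higher and 12.6% lower, gave 42 large-subunit and 25 small-subunit genes higher.

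**Figure D2:**
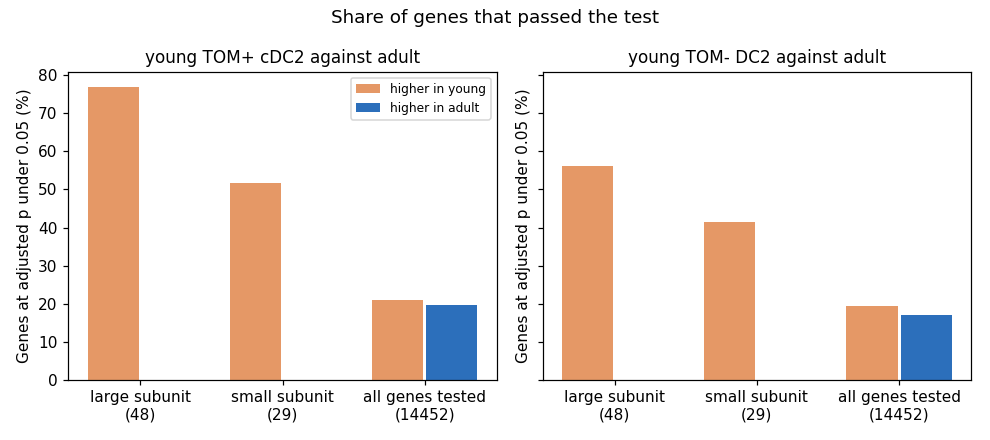
Share of the large-subunit genes, the small-subunit genes and all genes tested that were higher in young (orange) or higher in adult cells (blue) at an adjusted p under 0.05, for young TOM+ cDC2 (left) and young TOM- DC2 (right) against the same 3 adult libraries. In the left panel the shares higher in young are 77.1% for the large and 51.7% for the small subunit, against 21.0% of all genes, and no member was higher in adults.

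Library values show the same shift without reference to the model. Normalized counts of all 3 young TOM+ libraries lay above those of all 3 adult libraries for 38 of 48 large-subunit and 19 of 29 small-subunit genes, against 27.1% of all genes tested. The opposite order was found for 0 large-subunit genes and for 1 small-subunit gene, Mrps7, against 24.0% of all genes. Of the 30 large-subunit genes with a counterpart in bacterial ribosomes, 24 passed as higher in young cells (median log2 fold change 0.43), and of the 18 without a counterpart 13 passed (median 0.35). In the small subunit these counts were 10 of 16 (median 0.38) and 5 of 13 (median 0.25). No difference between these classes was tested. Cell cycle genes moved with age as well. The 15 listed markers of cycling cells summed to 2372 to 2506 TPM in young TOM+ cDC2, 2162 to 2249 TPM in young TOM- DC2 and 994 to 1187 TPM in adults, and 14 of the 15 were higher in young cells in either comparison with adults. Their part in the difference between ages was not tested, and neither was that of the larger share of reads outside genes in adult libraries.

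**Figure D3:**
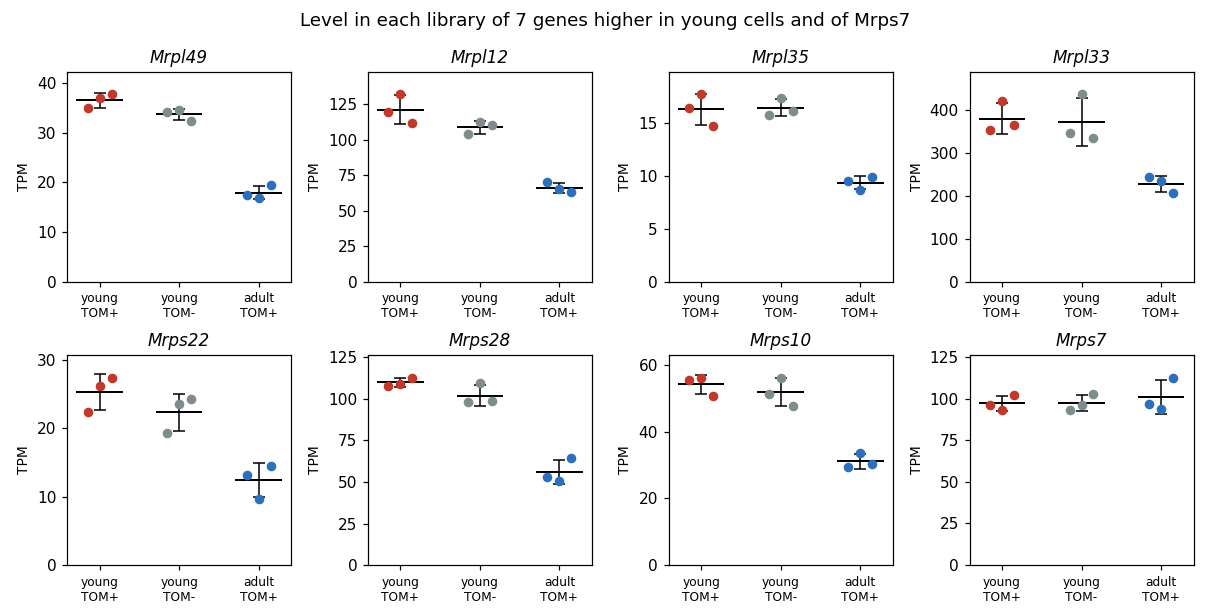
TPM in each library of Mrpl49, Mrpl12, Mrpl35 and Mrpl33 of the large subunit and Mrps22, Mrps28, Mrps10 and Mrps7 of the small subunit, with the mean (line) and SD (bar) of 3 libraries per group. In every panel but that of Mrps7 the adult libraries lie below all young libraries, as for Mrpl49 at 16.9 to 19.5 against 32.4 to 37.7 TPM.

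Among the large-subunit members that passed, the largest rise was that of Mrpl49 (chr19:6053630-6057755), which has no bacterial counterpart. Its level was 34.9, 36.9 and 37.7 TPM in young TOM+ cDC2, 34.2, 34.5 and 32.4 TPM in young TOM- DC2 and 17.4, 16.9 and 19.5 TPM in adults. All young libraries lay above all adult ones, and the log2 fold change of young TOM+ over adult cells was 0.91 ± 0.10 (SE; adjusted p = 2.3e-05). Mrpl12 (chr11:120484637-120488754) encodes the protein of the flexible stalk that recruits translation factors. It stood at 120, 132 and 112 TPM, at 104, 113 and 110 TPM and at 70.2, 65.6 and 63.4 TPM in the same order of groups, a log2 fold change of 0.76 ± 0.11 (SE; adjusted p = 0.00016). Mrpl35 (chr6:71812997-71823784), a low-abundance member, was at 16.4, 17.7 and 14.7 TPM, at 15.7, 17.3 and 16.1 TPM and at 9.50, 8.64 and 9.85 TPM, and rose by 0.67 ± 0.11 (SE; adjusted p = 0.00051). Mrpl20 (chr4:155802878-155808831), whose promoter carries the E-box shown above, was at 129, 167 and 160 TPM in young TOM+ cDC2, at 146, 164 and 148 TPM in young TOM- DC2 and at 92.6, 77.0 and 91.9 TPM in adults (log2 fold change 0.66 ± 0.14, SE; adjusted p = 0.0020). For none of these did a young and an adult library overlap.

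Mrpl33, the most abundant member, was also higher in young TOM+ cDC2, by 0.60 ± 0.14 on the log2 scale (SE; adjusted p = 0.0041). Its values were 352, 421 and 365 TPM against 243, 234 and 207 TPM in adults. Mrpl44, which has the fold of an RNase III enzyme, reached a log2 fold change of 0.42 ± 0.17 (SE) that did not pass (adjusted p = 0.065), with 14.4 to 19.9 TPM against 9.18 to 13.4 TPM. Mrpl45, which anchors the ribosome to the inner membrane near the exit of the peptide tunnel, stood at 24.1 to 26.2 TPM in young TOM+ cDC2 and 20.2 to 25.2 TPM in adults, which overlap, and had a log2 fold change of 0.02 with a 95% interval of −0.21 to 0.26. Mrpl14, a counterpart of a bacterial protein at the interface of the subunits, was the only large-subunit member with a negative log2 fold change (−0.13, 95% interval −0.35 to 0.09; adjusted p = 0.33). With other scalings the sign turned, to 0.07 with total counts and to 0.02 with limma on log2(TPM + 1). Its 3 young TOM+ libraries held 96.5 to 109 TPM and the adults 97.99 to 114 TPM.

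Of the other large-subunit members whose promoters are printed above, Mrpl42, with the SBS letters, was at 195 ± 7.0 TPM in young TOM+ cDC2 and 119 ± 17 TPM in adults (SD, n = 3) and rose by 0.58 ± 0.13 (SE; adjusted p = 0.0034). Mrpl34, with ETS and SBS letters, was at 67.0 ± 3.3 and 46.4 ± 3.1 TPM (0.41 ± 0.10, SE; adjusted p = 0.0072). Mrpl52, with ETS letters, was at 166 ± 5.2 and 122 ± 4.4 TPM (0.27 ± 0.10, SE; adjusted p = 0.040). Mrpl43, whose window holds the ETS letters at both positions given above, was at 65.7 ± 6.7 and 52.6 ± 6.5 TPM and did not pass (0.18 ± 0.10, SE; adjusted p = 0.18).

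In the small subunit Mrps22 (chr9:98588730-98601679) rose most. This protein has no bacterial counterpart and its promoter holds both the ETS and the SBS letters printed above. Its level was 22.4, 26.2 and 27.4 TPM in young TOM+ cDC2, 19.3, 23.5 and 24.3 TPM in young TOM- DC2 and 13.1, 9.70 and 14.5 TPM in adults. The young and adult libraries did not overlap, and the log2 fold change over adults was 0.90 ± 0.17 (SE; adjusted p = 0.0013). Mrps28 (chr3:8802146-8923857) was at 108, 109 and 113 TPM, at 97.9, 110 and 98.6 TPM and at 52.9, 50.9 and 64.3 TPM, and rose by 0.86 ± 0.11 (SE; adjusted p = 7.3e-05). Mrps10 (chr17:47368887-47381418), a protein of the head of the subunit with a bacterial counterpart, rose by 0.65 ± 0.11 (SE; adjusted p = 0.00055) from 29.3, 33.7 and 30.1 TPM in adults to 55.5, 56.0 and 50.8 TPM. Mrps11 (chr7:78783131-78792988) rose by 0.63 ± 0.10 (SE; adjusted p = 0.00031), from 26.7 to 30.3 TPM up to 45.0 to 49.9 TPM. Mrps12, the counterpart of the bacterial protein that governs the accuracy of decoding, rose by 0.43 ± 0.12 (SE; adjusted p = 0.011), and its values of 72.7 to 78.6 TPM lay above the 46.2 to 54.3 TPM of adults.

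Of the 3 members of the S18 family, Mrps18c, the counterpart of bacterial S18 that sits in the small subunit, rose by 0.46 ± 0.14 (SE; adjusted p = 0.018). Mrps18b had a log2 fold change of 0.25 ± 0.13 (SE; adjusted p = 0.16). Mrps18a had 0.22 ± 0.09 (SE; adjusted p = 0.067). Mrps18a and Mrps30 carry small-subunit names although their proteins are found in the large subunit, and Mrps30 rose by 0.43 ± 0.11 (SE; adjusted p = 0.0066). If both are counted with the large subunit and Mrps36 is left out, since its product is now regarded as a component of the oxoglutarate dehydrogenase complex, then 38 of 50 large-subunit and 14 of 26 small-subunit genes were higher in young TOM+ cDC2, and the medians were 0.41 and 0.31. Mrps7 (chr11:115604140-115608036), which binds ribosomal RNA early in the assembly of the subunit head, went in the other direction. Its TPM overlapped, at 96.3, 93.2 and 102 in young TOM+ cDC2 and 96.8, 93.5 and 113 in adults, while its log2 fold change on normalized counts was −0.22 ± 0.09 (SE; 95% interval −0.42 to −0.01; adjusted p = 0.086). It passed with DESeq2 (1 small-subunit gene lower) and with genes filtered at an average count of 10.

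**Figure D4:**
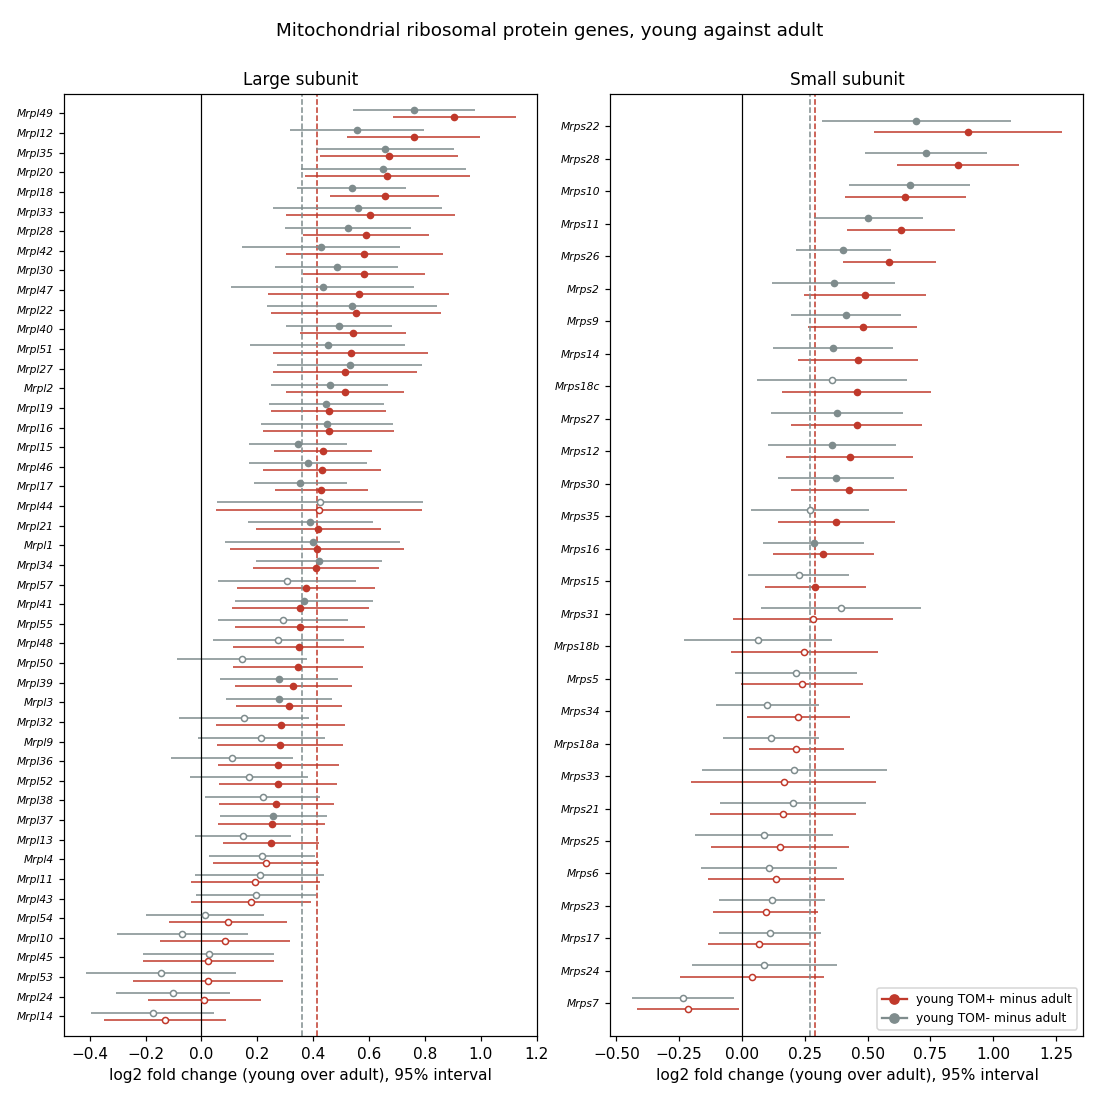
Log2 fold change of each member in young TOM+ cDC2 (red) and young TOM- DC2 (grey) over the same adult TOM+ cDC2 libraries, with 95% intervals. Filled points passed an adjusted p of 0.05, dashed lines mark the medians (0.41 and 0.36 for the large, 0.29 and 0.27 for the small subunit), and Mrpl23 and Mrps36 were left out of the plot for their low counts. Nearly all points lie to the right of 0, and Mrps7 and Mrpl14 are at the bottom of their panels.

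For 5 members STAR, which counted only reads with a single position in the genome, counted under 50% of what RSEM estimated by dividing reads among several positions. These were Mrpl23 (0.54%, with 1 to 10 STAR reads per library), Mrps36 (4.3%), Mrps33 (11.05%), Mrps18b (37.0%) and Mrpl51 (49.5%). Their results on STAR counts are uncertain, and those on RSEM's expected counts are given beside them. Mrpl23 had a log2 fold change of 1.03 (95% interval −0.80 to 2.86) on STAR counts and of 0.54 ± 0.13 (SE; adjusted p = 0.0065) on expected counts, where the young TOM+ libraries held 818, 855 and 981 and the adults 406, 335 and 472. In young TOM- DC2 over adults it had 0.88 (95% interval −0.98 to 2.74) on STAR counts and 0.57 ± 0.13 (SE; adjusted p = 0.0051) on expected counts. Mrps36 had 0.09 (95% interval −0.81 to 0.98) and 0.49 ± 0.11 (SE; adjusted p = 0.0053), and Mrps33 0.17 (adjusted p = 0.46) and 0.22 (adjusted p = 0.098). Mrps18b had 0.25 and, on expected counts, 0.29 (adjusted p = 0.027), and Mrpl51 passed on both, with 0.53 and 0.50. Without these 5, 51 of 72 members were higher in young TOM+ cDC2.

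Young TOM- DC2 were compared with the same adult libraries, so that the values of this comparison are not independent of those above. Of the 48 large-subunit genes 27 were higher in young TOM- DC2 and 0 lower at an adjusted p under 0.05 in edgeR, against 19.4% and 16.9% of all genes tested. Of the 29 small-subunit genes 12 were higher and 0 lower. Median log2 fold changes were 0.36 and 0.27, against 0.07 over all genes tested. No member was called beyond a log2 fold change of 1, as 11.3% of all genes were. Normalized counts of the groups did not overlap and were higher in young cells for 34 large-subunit and 17 small-subunit genes, against 26.1% of all genes, and higher in adults for 0 and 1, against 21.5%. At an unadjusted p under 0.05, 33 and 16 were higher, and 0 and 1 were lower, with 0 and 1 lower also in DESeq2 and 0 and 0 in limma. Of all 14452 genes, 3635 were higher and 3012 lower at that threshold in edgeR. At an adjusted p under 0.05 DESeq2 gave 24 and 12 higher, when 18.4% of all genes were higher. With total counts, which moved the split over all genes to 34.7% higher and 10.2% lower, 41 and 23 were higher. Leaving out replicate 1, the library with the most hemoglobin, gave 26 and 9 higher, when 18.3% of all genes were higher. With the number in the deposited names as a block, 30 and 12 were higher and Mrpl10, a protein at the base of the stalk, was lower. In that fit 23.6% of all genes were higher and 21.7% lower.

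Among the members that passed, the largest rises over adults in young TOM- DC2 were those of Mrpl49 (0.76 ± 0.10), Mrpl35 (0.66 ± 0.11), Mrpl20 (0.65 ± 0.14) and Mrpl33 (0.56 ± 0.14) in the large subunit (log2 fold change, SE), with adjusted p from 0.00011 to 0.0074. In the small subunit they were those of Mrps28 (0.73 ± 0.11), Mrps22 (0.69 ± 0.17), Mrps10 (0.67 ± 0.11) and Mrps11 (0.50 ± 0.10), with adjusted p from 0.00029 to 0.0077. Mrpl12 rose by 0.56 ± 0.11 (adjusted p = 0.0018), Mrps12 by 0.36 ± 0.12 (adjusted p = 0.031) and Mrps30 by 0.37 ± 0.11 (adjusted p = 0.015). Mrps18c had 0.36 ± 0.14 (adjusted p = 0.058), Mrps18a 0.12, Mrps18b 0.06 and Mrpl44 0.42 ± 0.17 (adjusted p = 0.070), and none of these passed. Mrpl45 had 0.03 with a 95% interval of −0.21 to 0.26, and Mrps7 −0.23 (adjusted p = 0.068). The negative members of the large subunit were Mrpl14 (−0.17), Mrpl53 (−0.14), Mrpl24 (−0.10) and Mrpl10 (−0.07), of which none passed, and the sign of Mrpl14 turned to 0.05 with total counts.

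**Figure D5:**
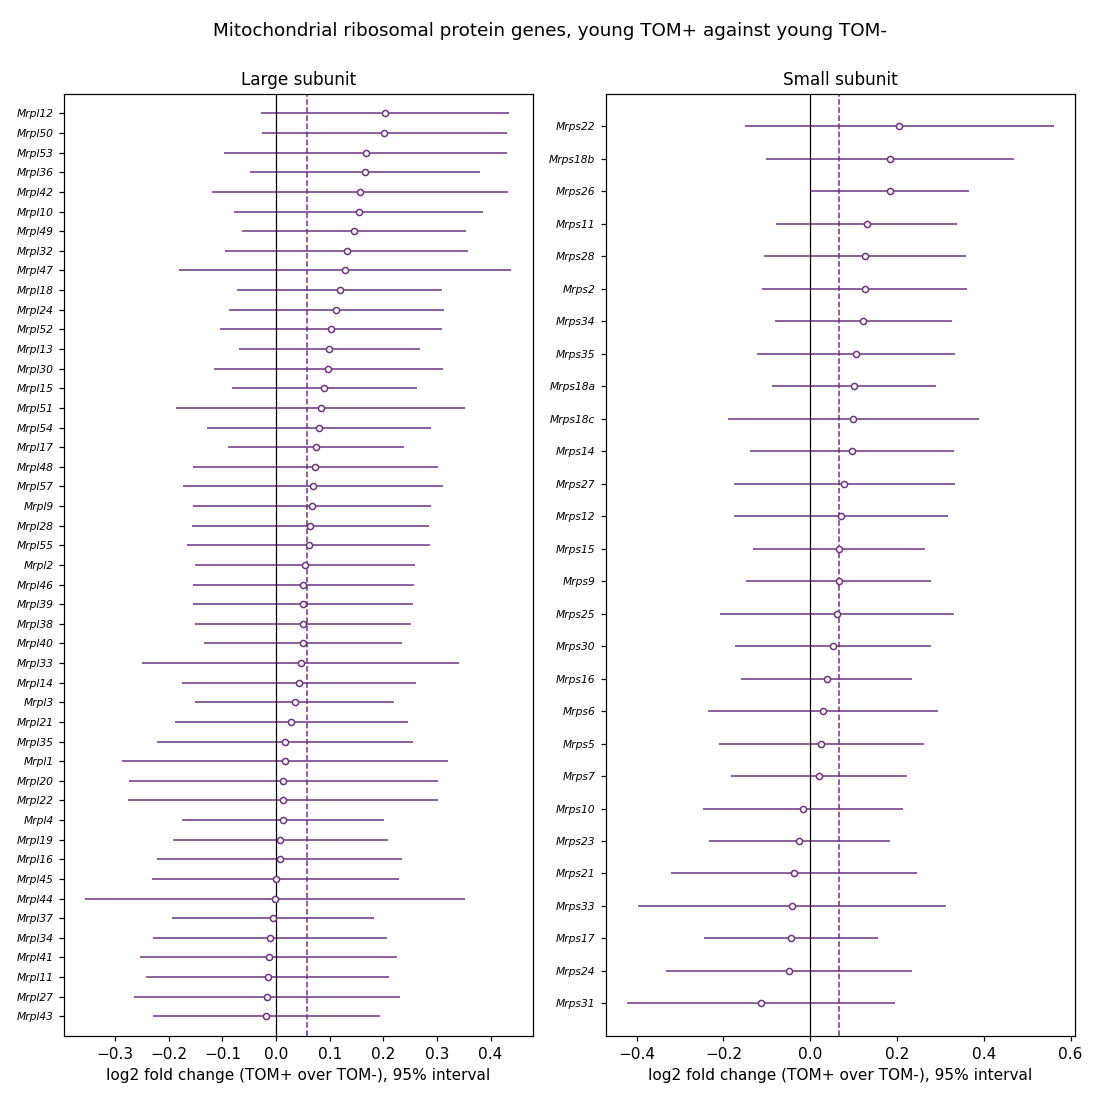
Log2 fold change of each member in young TOM+ cDC2 over young TOM- DC2, with 95% intervals and the median of each subunit as a dashed line (0.06 and 0.07). All points are open because no member passed, and Mrpl23 and Mrps36 were left out for their low counts. Point estimates lie between −0.11 and 0.21.

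Between the young groups, which share age, genotype and sort but differ in their history of Clec9a expression, no member passed. In edgeR 0 of 48 large-subunit and 0 of 29 small-subunit genes were higher or lower at an adjusted p under 0.05, against 0.125% of all genes tested that were higher in TOM+ cDC2 and 1.47% that were higher in TOM- DC2. No member was called beyond a log2 fold change of 1, as 1.18% of all genes were. At an unadjusted p under 0.05 the counts were 0 in the large subunit and 1 in the small, namely Mrps26 (log2 fold change 0.18, 95% interval 0.00 to 0.37, adjusted p = 0.53), which was at 94.8, 95.3 and 87.6 TPM in TOM+ cDC2 and 82.9, 81.8 and 87.6 TPM in TOM- DC2. Of all 14452 genes, 435 were higher in TOM+ cDC2 and 920 in TOM- DC2 at that threshold. DESeq2 and limma called 0 members, and so did the fit with the paired young libraries as a block, in which 2 large-subunit genes and 1 small-subunit gene had an unadjusted p under 0.05 (5 and 1 with the adult libraries in the block too). Most estimates were slightly above 0, with 40 of 48 large-subunit and 22 of 29 small-subunit genes on that side, against 7263 of all 14452 genes. Medians were 0.06 and 0.07, against 0.00 over all genes. These counts depended on scaling and library. They were 33 and 21 with total counts, 34 and 17 without replicate 1 of young TOM- DC2, and 44 and 25 without its replicate 2.

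An adjusted p above the threshold does not show that the young groups were alike, and the intervals of the unpaired fit bound the difference. Apart from Mrpl23 and Mrps36, the 95% intervals of the members reached from no lower than −0.42 (Mrps31) to no higher than 0.56 (Mrps22). Mrps22 was at 19.3 to 24.3 TPM in TOM- DC2 and 22.4 to 27.4 TPM in TOM+ cDC2, and Mrps31 at 14.2 to 21.7 TPM and 15.2 to 19.2 TPM, so that the group ranges overlapped in both. The young libraries are paired by their numbers, however, and within the pairs Mrps22 was higher in TOM+ cDC2 each time, at 22.4 against 19.3, 26.2 against 23.5 and 27.4 against 24.3 TPM. For Mrpl12 the difference was 0.20 with an interval of −0.03 to 0.43, and for Mrpl49 0.15 with −0.06 to 0.36, and both were higher in TOM+ cDC2 in 3 of 3 pairs. Mrps22 and Mrpl12 were among the members with the largest estimates in this comparison. How many members, or genes in all, had the same sign in 3 of 3 pairs was not counted. With the young pairs as a block the differences were 0.21 ± 0.13 for Mrps22, 0.20 ± 0.08 for Mrpl12 and 0.14 ± 0.09 for Mrpl49 (log2, SE), with adjusted p of 0.57, 0.31 and 0.57.

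Many members share a start region with a neighbour. In the GENCODE vM21 annotation 33 of the 77 members (42.9%) began within 1000 bases of the start of a protein-coding gene on the other strand, against 10.9% of 21924 protein-coding genes. Mrps11 and Mrpl46 share such a region with each other, and both were higher in young TOM+ cDC2 (0.63 and 0.43 on the log2 scale). Mrps12 shares one with Sars2, which rose by 0.39 (adjusted p = 0.0061). Mrpl47 and Mrpl36 share theirs with the complex I genes Ndufb5 (0.50, adjusted p = 0.0019) and Ndufs6 (0.42, adjusted p = 0.030). Of the 32 partners that were tested 13 were higher and 4 lower in young TOM+ cDC2, against 21.0% and 19.5% of all genes. The 32 include Mrps11 and Mrpl46, which are themselves members, and both are among the 13. The 4 that were lower include the partners of both members with a negative fold change. These were Gga3 of Mrps7 (−0.54, adjusted p = 0.00048) and Tmem63b of Mrpl14 (−1.19, adjusted p = 1.3e-05). The other partners that were lower were Pnpla7 of Mrpl41 (−0.78) and Ptcd2 of Mrps27 (−0.32), and both of these members were higher in young cells. Cell cycle genes were among the partners that rose, such as Ncapd2 of Mrpl51 (1.35) and Ska3 of Mrpl57 (1.47). The span of 26 members overlaps that of another protein-coding gene, Gga3 and Tmem63b included. These spans include introns, and how much of each overlap is exon was not examined. Since counting used no strand, reads are left unassigned where exons of both genes overlap. Such ambiguous reads made up 0.849% to 0.969% of each library.

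Other genes of mitochondrial translation were described from lists chosen with earlier results of these data known, and their counts stand against 21.0% of all genes tested that were higher and 19.5% that were lower in young TOM+ cDC2, and 19.4% and 16.9% in young TOM- DC2. Of 6 further ribosomal proteins with other symbols, 5 were higher in young than in adult TOM+ cDC2 (21.0% of all genes) and 0 lower, with a median log2 fold change of 0.36. They included Ict1, a release factor that became part of the large subunit (0.52, adjusted p = 0.0026), and Ptcd3 of the small subunit (0.39, adjusted p = 0.0028). In young TOM- DC2, 2 of the 6 were higher (19.4% of all genes), again Ict1 (0.37) and Ptcd3 (0.34). Of 18 translation factors 4 were higher and 1 lower in young TOM+ cDC2, a share of rises close to the 21.0% of all genes. The elongation factor Gfm1 (0.40, adjusted p = 0.0089) and Tsfm, which recharges the elongation factor Tufm (0.36, adjusted p = 0.015), rose, and Gfm2, which takes the ribosome apart after termination, fell by 0.47 (adjusted p = 0.035). In young TOM- DC2 Tufm was higher (0.50, adjusted p = 0.030) and Gfm2 lower (−0.59, adjusted p = 0.013), with 1 of 18 in each direction.

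Of 26 genes for ribosome assembly and rRNA modification, 8 were higher and 3 lower in young TOM+ cDC2 (median 0.11), and 4 and 4 in young TOM- DC2 (median 0.16), where the shares over all genes were 19.4% and 16.9%. In TOM+ cDC2, Wbscr16 (0.61, adjusted p = 0.0013) and the GTPase Noa1 (0.44, adjusted p = 0.0037) had the smallest p among the rises, while the GTPase Mtg2 (−0.45, adjusted p = 0.0077) and the rRNA methyltransferase Mrm1 (−0.37, adjusted p = 0.011) were lower. In TOM- DC2 the smallest p belonged to Gtpbp10 (0.82, adjusted p = 0.0040) and Rnmtl1 (0.80, adjusted p = 0.0074) among the rises and to the helicase Dhx30 (−0.37, adjusted p = 0.0061) and Mrm1 (−0.35, adjusted p = 0.016) among the falls. Of 20 genes that load mitochondrial tRNAs, 5 were higher and 1 lower in TOM+ cDC2 and 5 and 2 in TOM- DC2, shares of rises near the 21.0% and 19.4% of all genes. Vars2 (0.64 and 0.46 in the respective comparisons) rose in both, as did Mars2 (0.80 and 0.67) and Sars2 (0.39 and 0.42), while Wars2 was lower in both (−0.49 and −0.45) and Ears2 was lower in TOM- DC2 (−0.55, adjusted p = 0.027).

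Of 21 genes that copy, transcribe or process mitochondrial DNA and RNA, 8 were higher and 0 lower in young TOM+ cDC2 by edgeR (median 0.29, when 21.0% of all genes were higher), and 8 and 0 in young TOM- DC2 (median 0.21, 19.4%), with 9 higher and 2 lower in either comparison at an unadjusted p under 0.05. At that threshold 3682 of all 14452 genes were higher and 3343 lower in TOM+ cDC2, and 3635 and 3012 in TOM- DC2. The exonuclease Mgme1 (0.94 and 0.71) and the DNA polymerase Polg (0.84 and 0.57) had the smallest p in both. Tfam, which packs mitochondrial DNA and starts its transcription, was at 17.8 TPM in young TOM+ cDC2 and 11.8 TPM in adults (0.45, adjusted p = 0.0018). Of 10 regulators of mitochondrial gene expression 4 were higher and 3 lower in young TOM+ cDC2, against 21.0% and 19.5% of all genes, and 2 and 4 in TOM- DC2, against 19.4% and 16.9%. Pprc1 (0.34, adjusted p = 0.0082) and Gabpa, the DNA-binding part of GABP (0.30, adjusted p = 0.026), were higher in TOM+ cDC2. Nrf1 (0.10 in TOM+ cDC2 and 0.01 in TOM- DC2) and Yy1 (0.02 and −0.02), whose letters were also searched in promoters, did not pass in either comparison. Myc (0.34 and 0.38, adjusted p = 0.037 and 0.024) and Ppargc1b (1.38 and 1.66, adjusted p = 0.046 and 0.022) were higher in both young groups. Gabpb1, the partner of GABPA in GABP, was lower in both (−0.36 and −0.29, adjusted p = 0.0037 and 0.014), and so was Esrra (−0.51 and −0.55). The coactivator Ppargc1a was lower in both as well, at 0.00 to 0.03 TPM in young TOM+ cDC2, 0.08 to 0.19 TPM in young TOM- DC2 and 0.69 to 0.97 TPM in adults, levels at which a fold rests on few reads. Between the young groups 0 genes of these 6 lists passed in edgeR, with 2 of the list on mitochondrial DNA and RNA higher in TOM+ cDC2 and 1 regulator higher in TOM- DC2 at an unadjusted p under 0.05.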

How the data were processed

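RNA was sequenced in 9 libraries of sorted splenic dendritic cells, 3 per group. The authors aligned reads to mm10 with STAR and deposited its counts of reads per gene, unnormalized, of which the unstranded column was used because reads split evenly between strands (50.0% to 50.1%). Reads assigned to no gene (26.1% to 31.6%) were left out. They also deposited RSEM's expected counts and TPM per gene. Expected counts were rounded before testing, and the deposited TPM served for levels. Versions of STAR and RSEM are not given in the sources used here.

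Groups were compared by the quasi-likelihood test of edgeR 4.0.16 under R 4.3.3, after TMM scaling and removal of genes averaging fewer than 1 read. All 9 libraries entered 1 fit with 3 groups, p-values were adjusted by Benjamini-Hochberg over 14452 genes, and the procedure was checked on simulated data. DESeq2 1.42.0, limma 3.58.1, other scalings and filters, expected counts and leaving out each library were alternatives. Members, lists and tests were chosen with earlier results of these data known. Genes named are the 4 largest rises per subunit and comparison, the 4 highest and 4 lowest by TPM per subunit, members of known role or unusual naming, and the 2 smallest p per direction in each list. Members with negative fold changes, Mrpl43, Mrpl34, Mrps26, Mrps31, the head-to-head partners, Mrpl51, Tfam, Nrf1, Yy1, Sars2 in TOM+ cDC2 and the SBS letters were singled out after their values were seen. Numbers in the deposited names (81, 91 or 92 in both young groups) pair the young libraries: deviations from group means correlated at 0.74, 0.49 and 0.52 in same-numbered pairs. No library was a copy of another in its group, and libraries of different groups were not compared for copies. The result of 1 marker list is not reported here. Depth limits precision, and intervals cover these libraries only.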

Additional observations from a re-analysis of the deposited data

How the results depend on the processing

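Counts of members past the threshold kept their direction, with these exceptions in size. For young TOM+ against adult cells, total counts without TMM gave 25 small-subunit genes higher in young, and DESeq2 and a minimum average count of 10 gave 1 lower (Mrps7). For young TOM- against adult cells, large-subunit genes higher in young numbered 42 with limma at a pseudocount of 0.1, 42 at 1 and 41 with total counts, and small-subunit genes 25, 25 and 23. There 1 small-subunit gene (Mrps7) was lower with DESeq2, with RLE factors and with the minimum of 10, and 1 large-subunit gene (Mrpl10) with the replicate block. The block, which rests on numbers that pair the young libraries but share 2 numbers with adults, changed no other count of members past the threshold by over 1.5 times. It gave 2 small-subunit genes beyond a log2 fold change of 1 in young TOM+ cDC2 over adults, and 5 large-subunit genes at an unadjusted p under 0.05 between the young groups, where both were 0 without it. No member passed between the young groups under any alternative run. Total counts moved the median of all genes to 0.25 and 0.29 and their split from 21.0% higher and 19.5% lower to 33.1% and 12.6%, and from 19.4% and 16.9% to 34.7% and 10.2%, while member medians were 0.61 and 0.58 (large) and 0.49 and 0.49 (small). limma at a pseudocount of 0.1 moved it to 0.17 and 0.22, with 28.8% and 13.6% and with 30.3% and 10.7%. Leaving out single libraries gave 23 to 34 large-subunit and 12 to 14 small-subunit genes higher in young TOM+ cDC2 (lowest without its replicate 3), 19 to 26 and 8 to 12 in young TOM- DC2, and 0 to 0 elsewhere.

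Some values below the threshold changed sign. In young TOM+ against adult cells, Mrps36 reached −0.215 with the replicate block, −0.119 without the young pair numbered 81 (added after the data were seen) and −0.1944 to 0.4287 without a library. Mrpl45 reached −0.0046 at the minimum of 10, −0.0295 with the block and −0.0617 to 0.1202 without a library, and Mrpl14 reached 0.0216 and 0.0214 with limma at 0.1 and 1 and 0.068 with total counts. In young TOM- against adult cells, Mrps36 reached −0.0106 with DESeq2, −0.0053 with RLE factors, −0.278 with the block and −0.2611 to 0.3615 without a library, and Mrpl45 −0.0006 with RLE factors, −0.0085 on expected counts, −0.0005 at the minimum of 10, −0.0262 with the block and −0.0611 to 0.1205 without a library. Mrps18b ranged from −0.0247 (without adult replicate 1) to 0.1485 without a library, and Mrpl14 reached 0.0007 and 0.0007 with limma and 0.047 with total counts. Over the alternatives of all named members 668 values kept direction and side of the threshold, 50 newly passed, 10 were lost and 26 changed sign. The cause was not tested.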
